A study of Homo sapiens with 11 samples.

Results

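p53 is a transcription factor that accumulates after DNA damage and other stress and binds a palindromic site near its target genes. Its targets arrest the cell cycle, trigger apoptosis, repair DNA and, through MDM2 and its relatives, switch p53 off again. Human embryonic stem cells keep p53 under tight control, because high p53 activity drives them out of self-renewal or into cell death. The genes described here are 33 well-known p53 targets, taken by gene symbol from a fixed list and grouped by role. All 33 were found among the 23287 genes of the study's expression tables, and none of them was listed at 0 in any of the 11 libraries.

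The study sequenced RNA of the human embryonic stem cell lines H1 and H7 after lentiviral knockdown of CCNE1, the gene of cyclin E1, which drives entry into S phase. In 9 libraries, taken on day 5 after infection, cells carried an shRNA for pCCNE1, an shRNA for uCCNE1 or a control shRNA, each in H7 cells in the naive medium 5iLA, in H1 cells in the naive medium t2iGo and in primed H1 cells. pCCNE1 is, per the study's title, a primate-specific splice form, and uCCNE1 was not explained in the sources used here. The other 2 libraries came from untreated H7 cells, naive in 5iLA and primed. Each group was 1 library, so the 3 cultures stood in for replicates of an shRNA, and the 3 shRNAs for replicates of a culture. Libraries of 1 culture may share one origin, so p-values measured only the spread between these libraries and may be too small. The 5iLA and primed cultures of the shRNA experiment differed also in cell line, and only the untreated pair compared both media in H7.

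Of the 33 genes, 27 had a promoter window in RefSeq (GRCh38.p14; from 250 bases before the transcription start to 50 after it), and these windows were searched for the p53 consensus site. The site is 20 bases long, made of a pair of 10-base half-sites without a spacer, each with 3 purines, the core C, A or T, A or T, G, and 3 pyrimidines. Being its own reverse complement, it was read on both strands at once. A window of 8 of the 27 genes (29.6%) held a match with at most 3 mismatches and the 4 core C and G bases kept, against 373 of 27305 genes (1.37%) with a window. The matches are shown so that these letters can be read beside the expression values that follow, and the windows of the other 19 genes held none. Capitals mark the matched 20 bases, and lower case marks flanking sequence.

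MDM2 (chr12:68808903-68808962, plus strand): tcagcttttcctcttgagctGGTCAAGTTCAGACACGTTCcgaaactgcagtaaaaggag
SESN1 (chr6:109008998-109009057, minus strand): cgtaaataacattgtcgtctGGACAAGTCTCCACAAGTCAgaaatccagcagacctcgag
FAS (chr10:88991289-88991348, plus strand): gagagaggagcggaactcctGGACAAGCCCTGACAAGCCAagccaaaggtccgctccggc
AEN (chr15:88621286-88621339, plus strand): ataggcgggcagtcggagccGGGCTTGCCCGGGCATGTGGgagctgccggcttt
PMAIP1 (chr18:59899791-59899850, plus strand): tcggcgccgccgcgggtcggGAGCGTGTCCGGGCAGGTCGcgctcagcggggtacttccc
FDXR (chr17:74872995-74873035, minus strand): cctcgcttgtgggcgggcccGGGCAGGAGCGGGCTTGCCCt
DDB2 (chr11:47214969-47214988, plus strand): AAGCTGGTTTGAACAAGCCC
GDF15 (chr19:18386186-18386205, plus strand): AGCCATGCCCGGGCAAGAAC

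DDB2 had the closest match, with 1 mismatch, at positions -5 to 15 counted from the first transcribed base. MDM2, FAS and AEN had 2 mismatches each, and SESN1, PMAIP1, FDXR and GDF15 had 3. The MDM2 match lay at -94 to -75 from one of its annotated starts and the FAS match at -122 to -103. GADD45A, TNFRSF10B, RRM2B, TP53INP1, PHLDA3 and FBXO22 had no window. A match of letters is a description and not a measured binding site.

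Expression was deposited as RPKM, reads scaled to transcript length and to library size. Read numbers, estimated from the RPKM value of single reads, ran from 11300000 to 16500000 in the 5iLA H7 libraries, 6200000 to 13700000 in t2iGo H1 and 18800000 to 23500000 in primed H1. They were 24800000 in the untreated 5iLA library and 13000000 in the untreated primed library. The deposited values summed to 139202 to 224314 RPKM in the 6 shRNA libraries other than primed H1 and to 341088 to 357685 in primed H1, and most genes tested were lower in both other cultures than in primed H1. The labels also name the 3 primed H1 libraries by another scheme than the rest, so culture and a possible library batch cannot be told apart there. The naive pluripotency genes KLF17, DPPA5, TFCP2L1, KLF4, KLF5, DPPA3, DNMT3L and ALPPL2 summed to 478.1 to 842.4 RPKM in 5iLA H7, 3.54 to 5.16 RPKM in t2iGo H1 and 2.54 to 3.98 RPKM in primed H1. KLF17 was low in 5iLA cells too, at 0.693 to 1.23 RPKM in 5iLA H7 and 0.0248 RPKM in untreated 5iLA H7. DPPA5, DPPA3 and DNMT3L were below 1 RPKM in every t2iGo library, which goes against the naive label of that culture. It is called t2iGo H1 here. The same sum was 164.5 RPKM in untreated 5iLA H7 cells and 1.58 RPKM in untreated primed H7 cells.

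CCNE1, the targeted gene, read 8.38 RPKM with pCCNE1 shRNA, 5.27 with uCCNE1 shRNA and 14.1 with control shRNA in 5iLA H7. It read 5.25, 5.38 and 9.65 RPKM in t2iGo H1 and 10.5, 6.75 and 11.95 RPKM in primed H1, in the same order of shRNAs. CCNE1 was thus lower than control in all 6 knockdown libraries, by the least with pCCNE1 shRNA in primed H1. The gene-level value does not separate the splice forms. Wherever 3 values of a culture follow, they stand in this order, for pCCNE1, uCCNE1 and control shRNA.

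**Figure D1:**
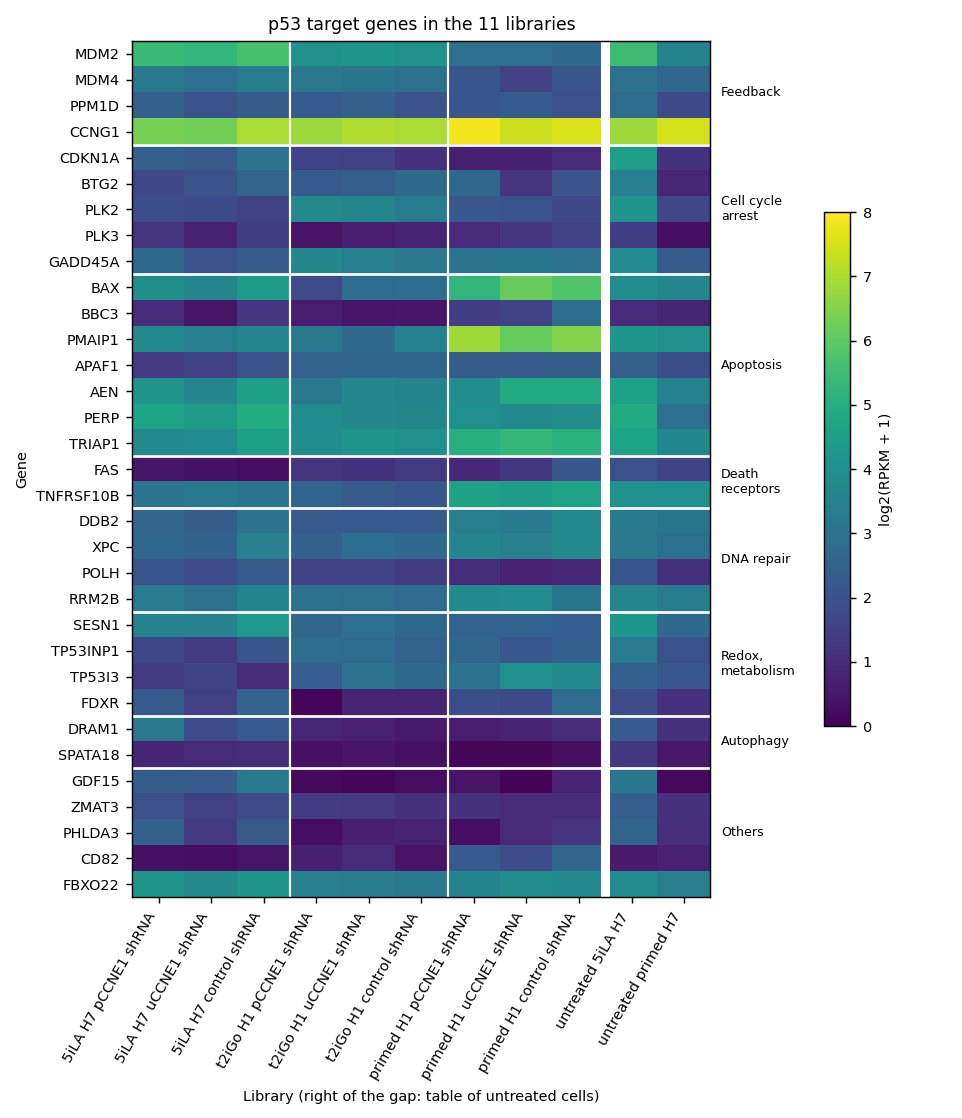
Level of each of the 33 p53 target genes as log2(RPKM + 1), by color, in the 11 libraries; genes are grouped by role and the table of untreated cells stands right of the gap. CCNG1 is the brightest row in every library, and MDM2 is brightest in the 4 5iLA libraries.

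The first comparison asks how the p53 targets differ between 5iLA and primed cells. With all 9 shRNA libraries in one limma fit on log2(RPKM + 1), 32 of the 33 genes had the mean of at least 1 RPKM needed for testing, all but SPATA18. In 5iLA H7 against primed H1, 10 of these 32 rose and 14 fell at an adjusted p under 0.05, over 12116 genes of which 7.74% rose and 76.8% fell. The median difference of the 32 genes was -0.26, against -1.23 over all genes tested. When the libraries were put on one scale by median ratios, the median of all genes became -0.19, and 18 of the 32 genes rose and 3 fell, against 26.7% and 39.7% of all genes. The further rescalings tried put the median of all genes at -0.11 (quantile normalization) and -0.06 (an equal sum over protein-coding entries). All 3 rescalings thus shifted genes upward. The 10 genes that rose as deposited also rose under each, which that shift favours, so this adds no support. Of the 14 that fell, only PMAIP1, TP53I3 and CD82 fell under all 3.

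Of the feedback regulators, which restrain p53, MDM2 and MDM4 rose. MDM2, the ubiquitin ligase that sends p53 to degradation, read 42.1, 37.4 and 50.4 RPKM in 5iLA H7, against 6.64, 6.66 and 5.72 RPKM in primed H1. The lowest 5iLA value was far above the highest primed value, and the difference was 2.59 ± 0.19 on the log2(RPKM + 1) scale (± is limma's standard error throughout; adjusted p = 2.5e-07). MDM4, a p53-binding partner of MDM2, read 8.29, 6.60 and 9.30 RPKM in 5iLA H7, against 3.42, 2.01 and 3.44 RPKM in primed H1, a difference of 1.21 ± 0.18 (limma, adjusted p = 7.26e-05). CCNG1, encoding cyclin G1, was the most abundant of the 33 genes per length, with 81.6, 76.7 and 125.0 RPKM in 5iLA H7 and 232.6, 168.3 and 191.5 RPKM in primed H1. Its difference of -1.08 ± 0.23 (limma, adjusted p = 0.000865) turned to 0.18 after median-ratio scaling. PPM1D, a phosphatase acting on p53 and its kinases, did not pass the test as deposited and rose by 1.11 after that scaling.

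Of the 5 arrest genes, CDKN1A rose and GADD45A fell as deposited. CDKN1A encodes p21, the cyclin-dependent kinase inhibitor that carries out p53-dependent arrest. It read 4.48, 3.70 and 7.30 RPKM in 5iLA H7, against 0.629, 0.616 and 0.928 RPKM in primed H1, without overlap. The difference was 1.80 ± 0.23 (limma, adjusted p = 1.65e-05), and 2.53 after median-ratio scaling. BTG2, PLK2 and PLK3 did not pass as deposited and rose by 1.05, 0.69 and 0.58 after median-ratio scaling. GADD45A differed by -0.71 ± 0.19 as deposited (limma, adjusted p = 0.00404) and by 0.36 after that scaling.

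Of the 7 apoptosis genes of the mitochondrial route, 5 fell and PERP rose as deposited, the share that fell being near the 76.8% of all genes. PMAIP1, the BH3-only protein NOXA, read 13.1, 9.87 and 11.9 RPKM in 5iLA H7, against 115.8, 67.6 and 89.7 RPKM in primed H1. This was the steepest fall of any of the 33 genes, at -2.84 ± 0.20 (limma, adjusted p = 1.69e-07), and remained -1.62 after median-ratio scaling. BAX, which permeabilises the outer mitochondrial membrane, read 14.6, 11.5 and 19.4 RPKM in 5iLA H7, against 37.8, 68.8 and 56.2 RPKM in primed H1. BAX differed by -1.76 ± 0.25 as deposited (limma, adjusted p = 4.1e-05) and did not pass after median-ratio scaling, at -0.54. BBC3, the BH3-only protein PUMA, TRIAP1, an inhibitor of apoptosis, and APAF1, the scaffold of the apoptosome, fell by 1.07, 1.08 and 0.72 as deposited, and none of these passed after that scaling. AEN, a nuclease, did not pass as deposited but was called higher under each rescaling, all of which shifted genes upward. PERP, a membrane protein of desmosomes, read 23.7, 19.6 and 29.8 RPKM in 5iLA H7, against 15.2, 12.98 and 14.5 RPKM in primed H1, higher by 0.72 ± 0.19 (limma, adjusted p = 0.00386).

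Both death receptors fell as deposited. TNFRSF10B, a receptor of the ligand TRAIL, differed by -1.39 ± 0.18 (limma, adjusted p = 1.98e-05), and FAS, the receptor of FAS ligand, by -1.08 ± 0.24 (limma, adjusted p = 0.00135). FAS rested on about 8 to 13 reads in each 5iLA H7 library, and neither passed after median-ratio scaling.

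Of the DNA repair genes, POLH, a translesion polymerase, read 3.20, 2.57 and 3.81 RPKM in 5iLA H7, against 1.05, 0.681 and 0.836 RPKM in primed H1, higher by 1.17 ± 0.18 (limma, adjusted p = 6.07e-05). DDB2 and XPC, which recognise lesions for nucleotide excision repair, fell by 0.80 and 0.78 as deposited but were 0.30 and 0.34 above 0 after median-ratio scaling. DDB2, XPC and GADD45A were called higher, in the opposite direction, after quantile normalization and with an equal sum over protein-coding entries (limma, adjusted p of 0.0212 to 0.0486). RRM2B, a ribonucleotide reductase subunit, did not pass as deposited but was called higher under each of the upward-shifting rescalings.

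Among redox, metabolic and autophagy genes SESN1 and DRAM1 rose. SESN1, a sestrin that restrains mTORC1 signalling, read 10.8, 10.7 and 18.3 RPKM in 5iLA H7, against 4.75, 4.69 and 4.20 RPKM in primed H1, a difference of 1.32 ± 0.21 (limma, adjusted p = 0.000104). DRAM1, a lysosomal protein of autophagy, read 8.01, 2.57 and 3.85 RPKM in 5iLA H7, against 0.556, 0.718 and 1.003 RPKM in primed H1, a difference of 1.62 ± 0.26 (limma, adjusted p = 0.000108). TP53I3, an oxidoreductase, read 1.56, 2.14 and 0.987 RPKM in 5iLA H7, against 6.89, 15.3 and 12.9 RPKM in primed H1. It fell by 2.27 as deposited (limma, adjusted p = 1.6e-06) and by 1.27 after median-ratio scaling. FDXR, a mitochondrial reductase, did not pass as deposited but was called higher under each of the upward-shifting rescalings. TP53INP1, a p53-inducible nuclear protein, differed by -0.70 as deposited and by 0.24 after median-ratio scaling. SPATA18, which takes part in mitochondrial quality control, was not tested and read 0.777, 0.971 and 1.03 RPKM in 5iLA H7, against 0.0946, 0.0995 and 0.222 RPKM in primed H1.

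Of the other targets GDF15, PHLDA3 and ZMAT3 rose and CD82 fell. GDF15, a secreted cytokine of stressed cells, read 4.09, 3.93 and 8.498 RPKM in 5iLA H7, against 0.344, 0.0445 and 0.713 RPKM in primed H1. The primed values stand for about 9.7, 1.1 and 16.1 reads, and the difference was 2.21 ± 0.20 (limma, adjusted p = 1.29e-06). PHLDA3, a repressor of AKT, read 4.58, 1.59 and 3.67 RPKM in 5iLA H7, against 0.233, 0.987 and 1.30 RPKM in primed H1, a difference of 1.19 ± 0.28 (limma, adjusted p = 0.00198). ZMAT3, an RNA-binding zinc finger protein, rose by 0.73 ± 0.17 (limma, adjusted p = 0.0017). CD82, a tetraspanin, read 0.303, 0.228 and 0.369 RPKM in 5iLA H7, against 3.82, 2.74 and 5.28 RPKM in primed H1, and fell by 1.90 as deposited and by 1.23 after median-ratio scaling. FBXO22, a subunit of a ubiquitin ligase, did not pass as deposited but was called higher under each of the upward-shifting rescalings. GDF15, PHLDA3, DRAM1 and PLK3 would have missed the filter without the 5iLA libraries, and CD82, BBC3, FAS and PLK3 without the primed ones, so their testing is not independent of the culture in which they were high.

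**Figure D2:**
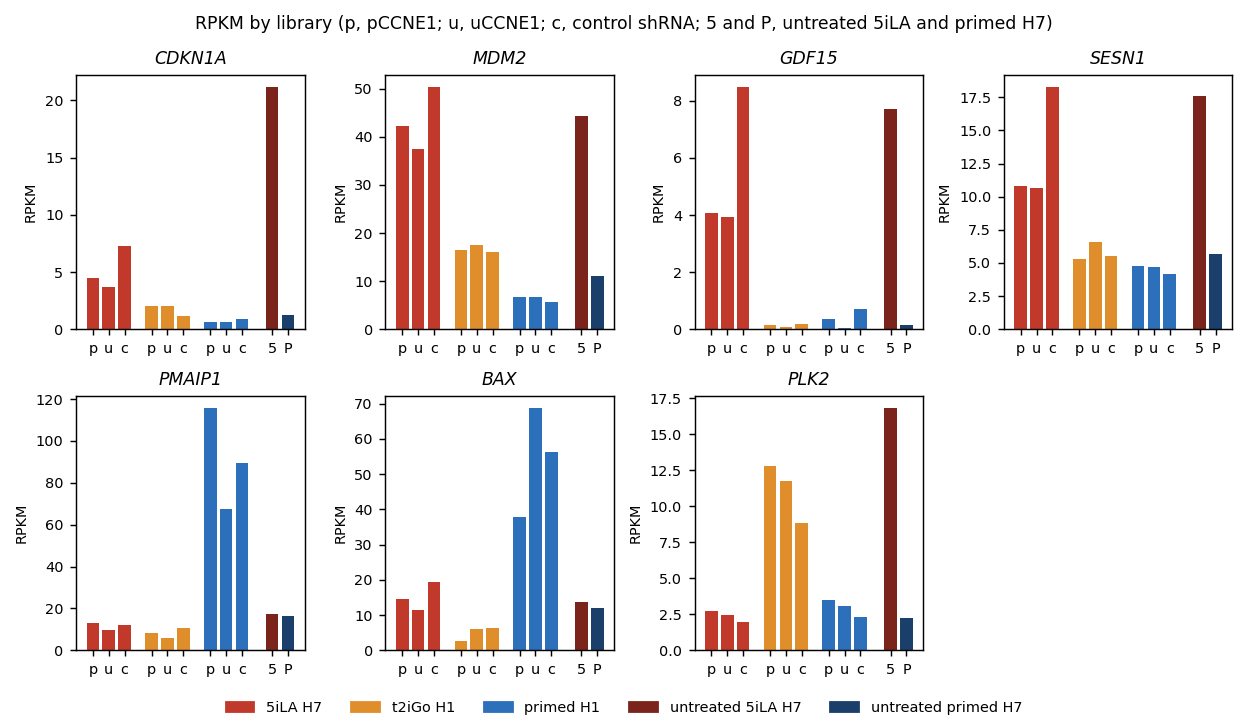
RPKM of 7 p53 target genes in each of the 11 libraries, as bars from 0 with a scale of its own per gene; p, u and c stand for pCCNE1, uCCNE1 and control shRNA. MDM2, GDF15 and SESN1 are highest in 5iLA libraries of both tables, while PMAIP1 and BAX are highest in primed H1 alone.

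The untreated H7 pair repeats the question within 1 line and without virus, with 1 library on each side and therefore no test. Of the 33 genes 30 reached the filter, all but BBC3, SPATA18 and CD82. In untreated 5iLA H7 cells 16 of the 30 were higher than in untreated primed H7 cells by more than 1 on the log2(RPKM + 1) scale, and none was lower by that much. BTG2, PLK3 and GDF15, 3 of these 16, reached the filter only through the 5iLA library, so they could be counted only as higher. Over the 11015 genes that reached the filter, 11% were higher and 3.94% lower by that much. The median difference was 1.04 for the 30 genes, against 0.23 over all of these genes. Of the 30, 29 lay above 0, where 66.1% of all genes did, and 25 lay above the median of all genes. After median-ratio scaling 12 of the 30 were higher by more than 1, against 7.59% of genes.

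CDKN1A led the untreated pair, with 21.2 RPKM in 5iLA and 1.26 RPKM in primed cells, a difference of 3.29. GDF15 read 7.73 RPKM in 5iLA and 0.138 RPKM in primed cells, the primed value standing for about 2.2 reads. BTG2, an antiproliferative gene, read 9.99 RPKM in 5iLA and 0.819 RPKM in primed cells. PLK2, GADD45A and PLK3, the other arrest genes, were higher in 5iLA cells by 2.45, 1.55 and 1.14. MDM2 read 44.2 RPKM in 5iLA and 11.04 RPKM in primed cells, and SESN1 17.6 and 5.66 RPKM. CCNG1 was the one tested gene below 0, with 111.5 RPKM in 5iLA and 177.5 RPKM in primed cells.

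Several genes of apoptosis that fell in the shRNA table were close to level here. PMAIP1 read 17.4 RPKM in untreated 5iLA and 16.4 RPKM in untreated primed cells, and BAX 13.7 and 12.1 RPKM. TNFRSF10B read 15.99 RPKM in 5iLA and 15.2 RPKM in primed cells. Their differences were 0.08, 0.17 and 0.07 as deposited but -0.15, -0.06 and -0.17 relative to the median of all genes, so the sign depends on the scale. PERP was higher, at 28.1 RPKM in 5iLA and 6.62 RPKM in primed cells. All 10 genes that rose in the shRNA table were above 0 in the untreated pair too, 9 of them by more than 1 and MDM4 by 0.24. Of the 14 that fell there, only CCNG1 and CD82 were below 0 in the untreated pair. Over all genes called in the shRNA table and tested in both tables, 89.1% of 811 higher genes were above 0 in the untreated pair, and 40.6% of 8365 lower genes were below 0. Across the 33 genes the differences of both tables had a Pearson r of 0.66 and a Spearman rho of 0.70, which describes genes within these libraries and has no test.

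Markers of other cells moved with these comparisons. The 6 trophoblast genes summed to 42.1 to 56.4 RPKM in 5iLA H7 libraries and 4.87 to 10.6 RPKM in primed H1. CGA made up most of the 5iLA sum and was at 0 in all 3 primed H1 libraries. KRT7 went the other way, at 0.217 to 0.539 RPKM in 5iLA H7 and at least 4.38 RPKM in primed H1. GATA2, GATA3 and TFAP2A were higher in 5iLA H7, but at most 2.18 RPKM there, so the difference in the sum rests on CGA. CDX2 stayed below 1 RPKM in every library. In the untreated pair, the 8 fibroblast genes summed to 187.9 RPKM in 5iLA and 39.1 RPKM in primed cells. TAGLN, FN1 and COL1A2 made up most of the 5iLA sum, and COL1A1 was level, at 3.04 and 3.08 RPKM. The 6 primed markers summed to 267.2 RPKM in that 5iLA library and 726.3 RPKM in untreated primed cells. Their sums were 22.2 to 43.6 RPKM in the 5iLA shRNA libraries. CD24 and CRABP1 made up most of the 267.2 RPKM, and CRABP1 was above its primed value, at 71.2 against 30.4 RPKM. ZIC2, SFRP2, THY1 and DUSP6 were at 0.863 to 5.27 RPKM, against 14.45 to 46.3 RPKM in primed cells. The part of these cells in the p53 target values was not tested, and in bulk RNA fewer cells of a type and less RNA per cell cannot be told apart.

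**Figure D3:**
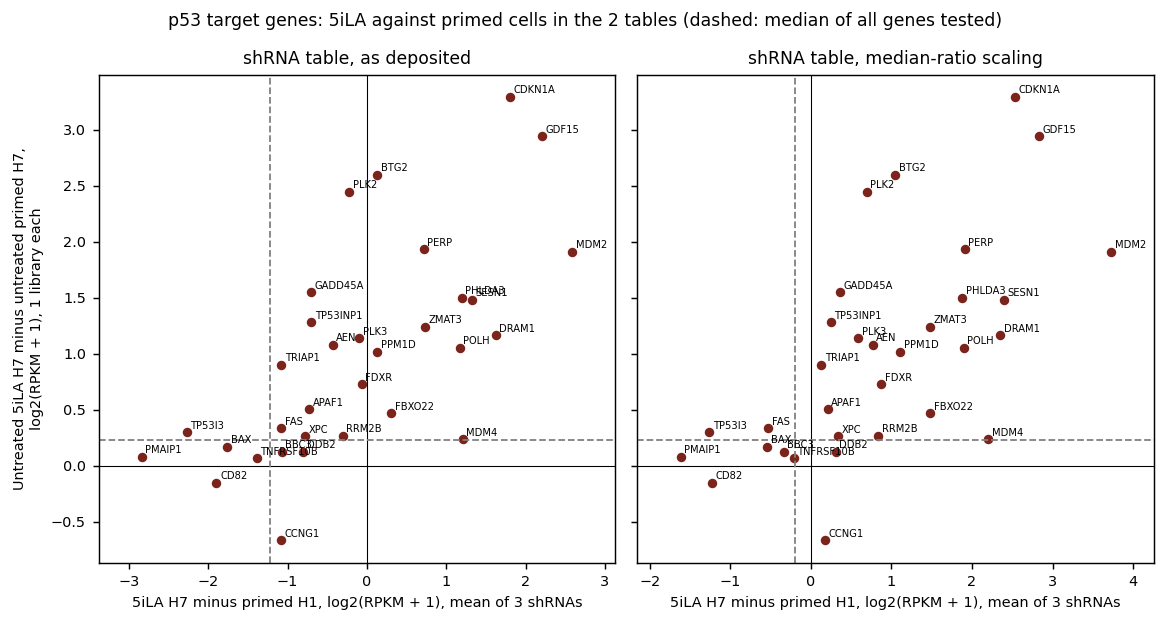
Difference between 5iLA and primed cells in log2(RPKM + 1) for each p53 target gene, in the shRNA table (x axis; left as deposited, right after median-ratio scaling) and in the untreated pair (y axis). Dashed lines mark the median of all genes tested; CDKN1A, GDF15 and MDM2 lie at the upper right in both panels, and PMAIP1 lies at the left with a y value of 0.08.

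The 5iLA and t2iGo cultures, both labelled naive, were compared next. In 5iLA H7 against t2iGo H1, 14 of the 32 genes rose and 6 fell, where 14.9% of all genes rose and 40.1% fell. GDF15, DRAM1, PHLDA3 and PLK3, 4 of the 14 risers, would have missed the filter without the 5iLA libraries. Their calls are thus not independent of the culture in which they were high. The median difference was 0.45 for the 32 genes and -0.31 for all genes. All 20 calls were made again, with the same sign, under each of the 3 rescalings. These moved the median of all genes upward, to -0.05, 0.02 and -0.13, so this adds no support for the 14 risers. POLH, ZMAT3, PLK3, FBXO22, TNFRSF10B and FAS each lost their call when at least 1 shRNA was left out. This pair differs in line as well as in medium and marker state, and these cannot be told apart.

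GDF15 differed most, with 4.09, 3.93 and 8.498 RPKM in 5iLA H7 and 0.148, 0.0947 and 0.193 RPKM in t2iGo H1, the t2iGo values resting on about 1.1 to 3.2 reads. Its difference was 2.44 ± 0.20 (limma, adjusted p = 2.55e-06). DRAM1 read 0.818, 0.654 and 0.467 RPKM in t2iGo H1, below all 3 of its 5iLA values, and rose by 1.72 ± 0.26 (limma, adjusted p = 0.000225). MDM2 read 16.4, 17.5 and 15.96 RPKM in t2iGo H1 and rose by 1.32 ± 0.19 in 5iLA H7 (limma, adjusted p = 0.000147). CDKN1A read 2.06, 1.998 and 1.19 RPKM in t2iGo H1 and rose by 1.14 ± 0.23 in 5iLA H7 (limma, adjusted p = 0.00149). Both genes thus held a middle place in t2iGo H1, with no overlap with either other culture.

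BAX was lowest in t2iGo H1, at 2.65, 6.15 and 6.43 RPKM, and stood 1.45 ± 0.25 higher in 5iLA H7 (limma, adjusted p = 0.000541). FDXR read 3.84, 1.87 and 4.67 RPKM in 5iLA H7 and 0.0935, 0.701 and 0.695 RPKM in t2iGo H1, the lowest value resting on about 1.1 reads, and rose by 1.55 ± 0.25 (limma, adjusted p = 0.000315). PHLDA3 read 0.223, 0.576 and 0.688 RPKM in t2iGo H1, with about 3.7 reads behind the lowest, and rose by 1.46 ± 0.28 in 5iLA H7 (limma, adjusted p = 0.00122). SESN1, PERP and TNFRSF10B rose by 1.03, 0.89 and 0.80, and FBXO22, PLK3, POLH and ZMAT3 by 0.49 to 0.73. The 14 risers include members of every role.

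The 6 that fell were PLK2, TP53I3, GADD45A, TP53INP1, APAF1 and FAS. PLK2, a polo-like kinase, read 2.71, 2.47 and 1.999 RPKM in 5iLA H7, against 12.8, 11.7 and 8.84 RPKM in t2iGo H1. It fell by 1.83 ± 0.16 (limma, adjusted p = 3.12e-06), the steepest fall here. GADD45A, a growth arrest gene, read 5.63, 3.07 and 3.90 RPKM in 5iLA H7, against 12.1, 9.90 and 8.07 RPKM in t2iGo H1, and fell by 1.10 ± 0.19 (limma, adjusted p = 0.000516). Arrest genes thus split, with CDKN1A and PLK3 higher and PLK2 and GADD45A lower in 5iLA H7. The other differences were -1.40 for TP53I3, -1.03 for TP53INP1, -0.92 for APAF1 and -0.88 for FAS.

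The 8 fibroblast genes summed to 28.5 to 57.4 RPKM in 5iLA H7 and 214.2 to 419.2 RPKM in t2iGo H1. FN1 was the largest part in each t2iGo library, at 131.6 to 174.9 RPKM, and COL3A1 and LUM were also high there. COL1A2 went the other way, at 2.77 to 10.96 RPKM in 5iLA H7 and 1.41 to 2.31 RPKM in t2iGo H1. The 7 endoderm genes summed to 0.558 to 0.766 RPKM in 5iLA H7 and 25.8 to 48.1 RPKM in t2iGo H1. Their part in these differences was not tested.

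**Figure D4:**
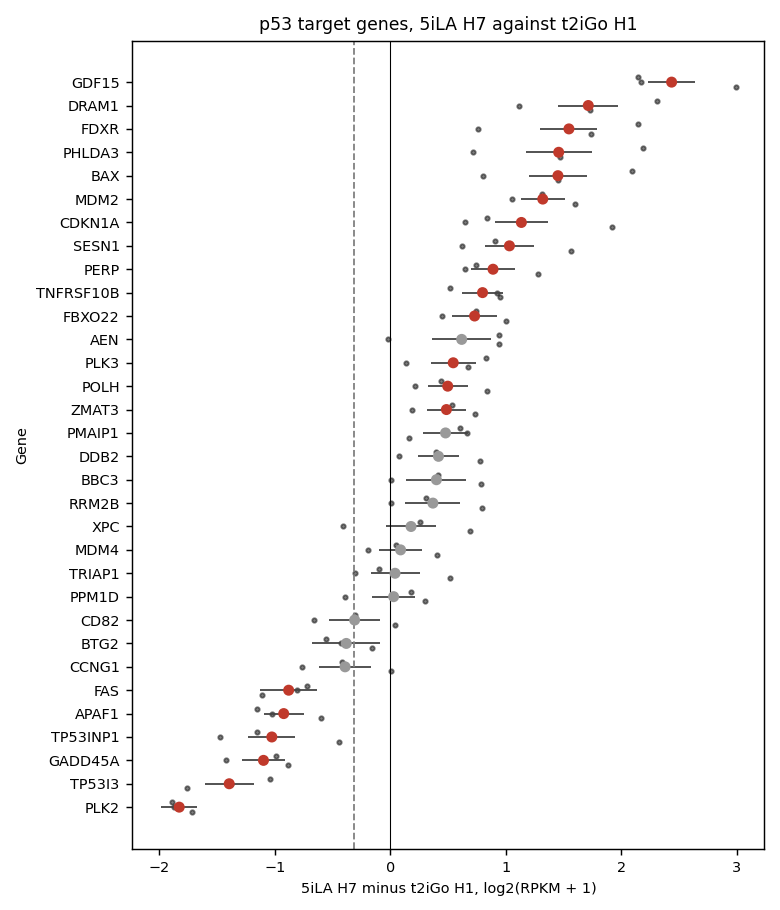
Difference between 5iLA H7 and t2iGo H1 in log2(RPKM + 1) for the 32 genes tested: large points are the limma estimate with its standard error, red at an adjusted p under 0.05, and small points the difference with each shRNA. The dashed line at -0.31 is the median of all genes; GDF15 stands at the top at 2.44 and PLK2 at the bottom at -1.83.

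In t2iGo H1 against primed H1, both the line H1, 5 of the 32 genes rose and 14 fell as deposited, where 8.77% of all genes rose and 63% fell. The median difference was -0.25 for the 32 genes and -0.82 for all genes. After median-ratio scaling, with the median of all genes at -0.13, 13 of the 32 rose and 8 fell, against 27.3% and 38.6% of all genes. The 5 risers kept their call under each rescaling, but all 3 rescalings shifted genes upward, so this adds no support. The 7 endoderm genes summed to 25.8 to 48.1 RPKM in t2iGo H1 and 0.939 to 3.69 RPKM in primed H1. The 8 fibroblast genes summed to 214.2 to 419.2 RPKM in t2iGo H1 and 86.5 to 156.0 RPKM in primed H1. FN1, COL3A1 and LUM were higher in t2iGo H1. COL1A2 and TAGLN were lower, at 1.41 to 2.31 and 15.1 to 22.95 RPKM, against 23.2 to 29.6 and 28.5 to 102.8 RPKM in primed H1. The part of these marker genes in the p53 target values was not tested.

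PLK2 rose most, with the t2iGo values above and 3.52, 3.08 and 2.32 RPKM in primed H1, a difference of 1.61 ± 0.16 (limma, adjusted p = 3.07e-06). MDM2 rose by 1.27 ± 0.19 (limma, adjusted p = 8.64e-05) and MDM4 by 1.12 ± 0.18 (limma, adjusted p = 0.000187). POLH and CDKN1A rose by 0.67 and 0.66, with adjusted p-values of 0.00455 and 0.0211 (limma). Without the uCCNE1 shRNA libraries CDKN1A and POLH did not pass, at 0.55 and 0.57, and without the pCCNE1 shRNA libraries CDKN1A did not, at 0.54.

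PMAIP1 read 8.31, 5.85 and 10.5 RPKM in t2iGo H1, far under its primed values, and fell by 3.32 ± 0.20 (limma, adjusted p = 1.73e-07). BAX fell by 3.21 ± 0.25 (limma, adjusted p = 7.11e-07) and TNFRSF10B, at 4.92, 3.92 and 3.38 RPKM in t2iGo H1 and 22.8, 19.9 and 23.3 RPKM in primed H1, by 2.19 ± 0.18 (limma, adjusted p = 1.04e-06). FDXR, CD82 and BBC3 fell by 1.62, 1.59 and 1.47, BBC3 on about 5.9 to 10.2 reads per t2iGo library. These 6 genes fell under all 4 scalings. CD82 and BBC3 of these, and PLK3 below, would have missed the filter without the primed libraries, so their calls are not independent of that culture. DDB2, TRIAP1, AEN, XPC, TP53I3, CCNG1, RRM2B and PLK3 fell as deposited, by 0.64 to 1.22, but not under every rescaling, and 6 of them turned sign under at least 1, CCNG1 being called higher there.

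The shRNA comparisons ask whether loss of a CCNE1 form changed the p53 targets. With pCCNE1 shRNA against control, none of the 32 genes passed an adjusted p under 0.05, and neither did any of the 12116 genes (0%). At an unadjusted p under 0.05, limma gave 3 of the 32 genes, against 14.8% of all genes. The median difference was -0.15 for the 32 genes and also for all genes.

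CDKN1A read 4.48 RPKM with pCCNE1 shRNA and 7.30 RPKM with control in 5iLA H7, 2.06 and 1.19 RPKM in t2iGo H1, and 0.629 and 0.928 RPKM in primed H1. The sign differed between cultures, and the difference over all 3 was -0.12 ± 0.23 (limma, adjusted p = 0.836). MDM2 differed by -0.01 ± 0.19 (limma, adjusted p = 0.982). BAX read lower with pCCNE1 shRNA in all 3 cultures, at 14.6 RPKM against 19.4 with control in 5iLA H7, 2.65 against 6.43 in t2iGo H1 and 37.8 against 56.2 in primed H1. BAX differed by -0.66 ± 0.25 (limma, adjusted p = 0.258). FDXR and AEN were also below control in each culture, at -0.59 and -0.54 over all (limma, adjusted p = 0.3004 and 0.3499). PLK2 was above control in each culture, at 0.41 ± 0.16 (limma, adjusted p = 0.256). GDF15 differed by -0.44 and GADD45A by 0.35, with adjusted p of 0.349 and 0.406 (limma). ZMAT3 and DRAM1 differed by 0.19 and 0.28, and DRAM1 owed this to 5iLA H7, where it read 8.01 RPKM with pCCNE1 shRNA and 3.85 RPKM with control.

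With uCCNE1 shRNA against control, again none of the 32 genes nor any gene passed (0%). At an unadjusted p under 0.05, limma gave 5 of the 32 genes, all lower, against 10.2% of all genes, of which 9.14% were lower and 1.06% higher as shares of all genes. The median difference was -0.19 for the 32 genes and -0.14 for all genes. CDKN1A read 3.70 RPKM with uCCNE1 shRNA and 7.30 RPKM with control in 5iLA H7, 1.998 and 1.19 RPKM in t2iGo H1, and 0.616 and 0.928 RPKM in primed H1, at -0.21 ± 0.23 over all (limma, adjusted p = 0.771). MDM2 differed by -0.03 ± 0.19 (limma, adjusted p = 0.959). GDF15 was below control in each culture, at -0.59 ± 0.20 (limma, adjusted p = 0.390), on about 1.1 reads in both primed H1 and t2iGo H1. FDXR and BBC3 both differed by -0.68 and PMAIP1 by -0.47 (limma, adjusted p = 0.409, 0.418 and 0.459). PLK2, TP53I3, PPM1D and RRM2B were above control over all, by 0.29, 0.39, 0.14 and 0.09, with adjusted p of at least 0.543 (limma). Both shRNAs were set against the same control libraries, so the 2 sets of values are not independent.

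Set directly against each other, pCCNE1 and uCCNE1 shRNA gave no call among the 32 genes or all genes (0%), with 2 of the 32 at an unadjusted p under 0.05 by limma, against 4.09% of all genes. PMAIP1 read higher with pCCNE1 shRNA in each culture, with 13.1 RPKM against 9.87 with uCCNE1 shRNA in 5iLA H7, 8.31 against 5.85 in t2iGo H1 and 115.8 against 67.6 in primed H1. Its difference was 0.53 ± 0.20 (limma, adjusted p = 0.990). TP53I3 read lower in each culture, with 1.56 RPKM against 2.14 in 5iLA H7, 4.29 against 7.17 in t2iGo H1 and 6.89 against 15.3 in primed H1, at -0.66 ± 0.21 (limma, adjusted p = 0.990). CDKN1A and MDM2 differed by 0.09 and 0.02. BAX, AEN and TRIAP1 differed by -0.50, -0.31 and -0.19, and DRAM1, GADD45A and MDM4 by 0.44, 0.32 and 0.30.

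**Figure D5:**
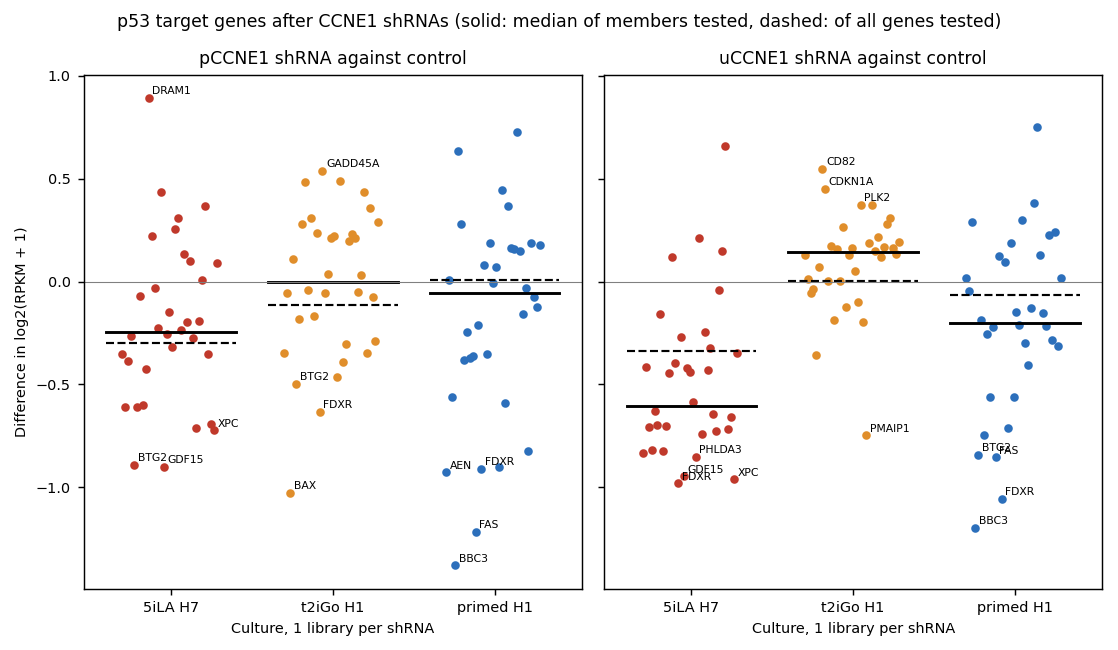
Difference in log2(RPKM + 1) between pCCNE1 (left) or uCCNE1 (right) shRNA and control for each p53 target gene, within each culture, 1 library per shRNA. Solid lines are the median of the 32 genes tested and dashed lines that of all genes tested; in 5iLA H7 both lie below 0, at -0.24 and -0.30 for pCCNE1 shRNA and at -0.61 and -0.34 for uCCNE1 shRNA.

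Within single cultures there is no test, and few targets moved by more than 1. In 5iLA H7, none of the 32 did with either shRNA, where 0.875% and 4.9% of genes were higher and lower with pCCNE1 shRNA, and 0.528% and 4.94% with uCCNE1 shRNA. GDF15 was nearest in 5iLA H7 with pCCNE1 shRNA, at -0.90, and FDXR, XPC and GDF15 with uCCNE1 shRNA, at -0.98, -0.96 and -0.95. In t2iGo H1, BAX alone did, at -1.03 with pCCNE1 shRNA, where 0.735% of genes were higher and 2.72% lower by that much, and it rested on about 13.1 reads. With uCCNE1 shRNA none did, where 0.38% of genes were higher and 0.636% lower. In primed H1, 0.924% of genes were higher by that much with pCCNE1 and 0.619% with uCCNE1 shRNA, and none of the 32 was. There BBC3 read 1.77 RPKM with pCCNE1 shRNA, 2.14 with uCCNE1 shRNA and 6.19 with control, differences of -1.38 and -1.20. FAS was the other gene lower by more than 1 with pCCNE1 shRNA there, at 0.910 RPKM against 3.43 with control, where 3.61% of genes were lower by that much. FDXR was the other one with uCCNE1 shRNA, at 2.41 RPKM against 6.07 with control, where 2.82% were. RRM2B read 13.3 RPKM with pCCNE1 shRNA, 13.5 with uCCNE1 shRNA and 7.62 with control in primed H1, the largest differences upward there.

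The response in the naive-labelled cultures minus that in primed H1 was tested directly, with 2 residual degrees of freedom. None of the 32 genes passed for either shRNA, where limma called 0.223% of all genes for pCCNE1 and 0.157% for uCCNE1 shRNA. At an unadjusted p under 0.05 there were 3 and 2 of the 32 genes, against 6.69% and 4.87% of all genes. For pCCNE1 shRNA these were FAS at 1.24 ± 0.29, BBC3 at 1.30 ± 0.36 and BTG2 at -1.33 ± 0.38 (limma, adjusted p = 0.271, 0.412 and 0.435). BTG2 read 5.44 RPKM with pCCNE1 shRNA and 3.14 with control in primed H1, but 2.31 and 5.13 RPKM in 5iLA H7 and 3.86 and 5.85 RPKM in t2iGo H1. For uCCNE1 shRNA they were FAS at 0.82 ± 0.29 and CD82 at 0.94 ± 0.34 (limma, adjusted p = 0.848 and 0.869). FAS, BBC3 and CD82 would have missed the filter without the primed libraries, and DRAM1 without the 5iLA ones. With control shRNA FAS, BBC3 and CD82 read 0.199, 1.42 and 0.369 RPKM in 5iLA H7 and 1.59, 0.405 and 0.329 RPKM in t2iGo H1. Their primed H1 control values were 3.43, 6.19 and 5.28 RPKM. A fall had less room in the naive-labelled cultures, so the positive values of these 3 genes are no support for a different response. DRAM1 and TP53I3 were at 0.96 and 0.83 and RRM2B, CCNG1 and SESN1 at -0.76, -0.67 and -0.53 for pCCNE1 shRNA, and BBC3 and FDXR at 0.77 and 0.57 and RRM2B, BAX, TRIAP1 and PPM1D at -0.999, -0.67, -0.49 and -0.36 for uCCNE1 shRNA. CDKN1A and MDM2 were at 0.19 and -0.29 for pCCNE1 and at 0.07 and -0.33 for uCCNE1 shRNA.

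Further genes of the pathway were read from the same fits. Of 15 tested upstream regulators of p53, none rose and 10 fell in 5iLA H7 against t2iGo H1, with a median of -0.61, against -0.31 over all genes, of which 14.9% rose and 40.1% fell. Under the 3 rescalings 1 rose and 7 to 9 fell, against 23.4% to 28.2% and 27.4% to 34.3% of all genes. TP53BP1, a DNA damage adaptor, fell by 1.65 and the damage kinases CHEK2 and ATR by 1.56 and 1.40, and these 3 fell under every scaling. In 5iLA H7 against primed H1, 13 of the 15 fell as deposited, where 76.8% of all genes fell, with a median of -1.37 against -1.23 over all genes. After median-ratio scaling 4 of them fell and 2 rose, where 39.7% of all genes fell and 26.7% rose. Of 23 further p53 targets, 8 rose and 4 fell in 5iLA H7 against t2iGo H1, where 14.9% and 40.1% of all genes did, with a median of 0.06 against -0.31, and 8 or 9 rose and 3 fell under the rescalings. In 5iLA H7 against primed H1, 5 rose and 15 fell as deposited, where 7.74% and 76.8% of all genes did, and 8 rose and 9 fell after median-ratio scaling, where 26.7% and 39.7% did. EDA2R, a death domain receptor, read 5.07, 4.396 and 7.91 RPKM in 5iLA H7, against 1.72, 1.92 and 1.55 RPKM in t2iGo H1 and 0.368, 0.320 and 0.572 RPKM in primed H1. It rose by 1.28 ± 0.19 against t2iGo H1 (limma, adjusted p = 0.000207) and by 2.23 ± 0.19 against primed H1 (limma, adjusted p = 8.2e-07). RPS27L, a ribosomal protein paralogue, rose by 1.063 and 0.91, and C12orf5, the metabolic regulator TIGAR, by 0.71 and 0.87. KLF4, on this list as a p53 target, is also a naive marker and rose by 3.48 and 2.80. These 4 risers rose in both comparisons under every scaling, though the rescalings shifted genes upward in both. Other genes of this list read lower in 5iLA H7 than in both other cultures, such as CMBL and ORAI3. CMBL read 0.401 to 0.583 RPKM in 5iLA H7, 1.96 to 2.54 RPKM in t2iGo H1 and 4.33 to 9.28 RPKM in primed H1. ORAI3 read 0.0693 to 0.247, 1.02 to 1.96 and 3.42 to 5.53 RPKM in the same order. Of 12 cell cycle genes repressed through p53, p21 and the DREAM complex, 1 rose and 8 fell in 5iLA H7 against t2iGo H1, with a median of -0.80 against -0.31, where 40.1% of all genes fell, and 2 rose and 5 to 8 fell under the rescalings. MYBL2, encoding B-MYB, was the riser, at 1.91, while TOP2A, BUB1 and CDK1 fell by 1.29, 1.17 and 1.062. Against primed H1, none of the 12 rose as deposited. In 5iLA H7 10 of them fell, against 76.8% of all genes, and t2iGo H1 had 9 that fell, against 63% of all genes. Under the rescalings 2 rose and 4 to 6 fell in 5iLA H7, where 26.7% to 31% of all genes rose and 34.1% to 39.7% fell. In t2iGo H1 3 to 5 rose and 4 or 5 fell, where 27.3% to 38.6% of all genes rose and 30% to 38.6% fell.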

How the data were processed

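Per the labels' protocols, RNeasy Mini kits served for RNA and TruSeq RNA kits for libraries. The authors deposited RPKM per gene in 2 tables, one of 9 shRNA libraries and one of 2 untreated libraries, each used within itself. TopHat2, Cufflinks 1.2.1 and the build hg19 are named per the submitters' processing notes. The sources used here give neither their roles nor the counting rule or its use of strand. Of the 33 genes, MDM2, CDKN1A, SESN1, XPC, APAF1, PHLDA3, PLK3, TP53I3, TNFRSF10B, CD82 and DRAM1 share exonic bases with another annotated gene (GENCODE v29), so their reads may be mixed.

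Values were taken as log2(RPKM + 1), and fold changes on this scale understate those of low genes. Genes with a mean of at least 1 RPKM, 12116 of the shRNA libraries and 11015 of the untreated pair, were tested or counted. limma 3.58.1 in R 4.3.3 (lmFit, eBayes with trend) fitted culture and shRNA to all 9 libraries, with 4 residual degrees of freedom, and with a term for the response in naive-labelled cultures, with 2. The p-values were adjusted by Benjamini-Hochberg over all genes tested. The script was tested on simulated data. Read numbers were estimated from the value of single reads and GENCODE transcript lengths. Reads without molecular identifiers are not independent molecules.

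The members and gene lists were chosen with earlier results of these data known. CDKN1A and MDM2 were always given, and 1 further gene of that rule and of the list of upstream regulators is not reported here. For tested comparisons up to 10 genes per direction past the threshold were named, or the 4 with the smallest p. Alternatives were the pseudocount, the filter, 3 rescalings (quantile normalization, median ratios and an equal sum over protein-coding RefSeq entries), no trend, no culture term, and leaving out a culture or shRNA.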

Additional observations from a re-analysis of the deposited data

How the results depend on the processing

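With 1 library per group, estimated read numbers limit the low genes. A difference between cultures may also carry a library batch and, between H7 and H1, carries the line. No paired analysis was possible because each group held 1 library and no replicate number, though the culture and shRNA terms of the fit already match libraries across groups. Without the culture term each shRNA comparison again had 0 calls. The counts of called genes changed mainly with the scale. In 5iLA H7 against primed H1, 21 genes rose and 3 fell after quantile normalization, 18 and 3 after median-ratio scaling and 21 and 3 with an equal sum over protein-coding entries, against 10 and 14 as deposited. Of all genes 29.7%, 26.7% and 31% rose and 36.8%, 39.7% and 34.1% fell in that order, against 7.74% and 76.8% as deposited. In t2iGo H1 against primed H1 the counts were 15 and 7, 13 and 8, and 15 and 6 in the same order, against 5 and 14. Of all genes 33.4%, 27.3% and 38.6% rose there and 33.7%, 38.6% and 30% fell, against 8.77% and 63%. Leaving out each shRNA in turn gave 3 to 5 risers, 3 without the uCCNE1 shRNA libraries, where 5.94% to 8.17% of all genes rose. In 5iLA H7 against t2iGo H1 leaving out an shRNA gave 11 to 13 risers and 5 or 6 that fell. Of all genes 10.2% to 12.6% rose and 24.8% to 38.7% fell there. PLK3, POLH and ZMAT3 were lost without pCCNE1 shRNA, and FAS, TNFRSF10B and POLH without uCCNE1 shRNA. PLK3, POLH, ZMAT3 and FBXO22 were lost without control, and POLH and ZMAT3 without the filter. Fits on only the 6 libraries compared, chosen after seeing the data, kept each count within 1.5 times.

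Of the genes that fell in 5iLA H7 against primed H1, TRIAP1 turned to 0.13, 0.13 and 0.30, CCNG1 to 0.13, 0.18 and 0.35 and DDB2 to 0.38, 0.30 and 0.46 under the 3 rescalings in that order. In t2iGo H1 against primed H1, TRIAP1, AEN and XPC turned to 0.00069, 0.046 and 0.074 with the equal sum. Differences near 0 that were not called also turned: with pCCNE1 shRNA against control CDKN1A went to 0.094, 0.047 and 0.097 and MDM2 to 0.21, 0.15 and 0.21, and with uCCNE1 shRNA MDM2 went to 0.19, 0.11 and 0.17. Leaving out each culture in turn gave, for pCCNE1 shRNA, CDKN1A -0.42 to 0.12, MDM2 -0.11 to 0.11 and DRAM1 -0.027 to 0.60, and for uCCNE1 shRNA CDKN1A -0.54 to 0.098, MDM2 -0.15 to 0.16 and RRM2B -0.25 to 0.45. Between the shRNAs it gave MDM2 -0.048 to 0.082, DRAM1 -0.00312 to 0.73 and AEN -0.71 to 0.0035. The sign turned without 5iLA H7, and for RRM2B and AEN without primed H1. The naive minus primed difference of MDM2 for pCCNE1 shRNA was 0.051 after median-ratio scaling. The causes were not tested.

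Within cultures, a pseudocount of 0.1 left 4 genes lower by more than 1 with pCCNE1 and 5 with uCCNE1 shRNA in primed H1, 2 and 6 in 5iLA H7, and 3 with pCCNE1 shRNA in t2iGo H1. Of all genes 5.6%, 5.24%, 11.8%, 11.6% and 8.74% were, in that order. That pseudocount put 1 gene higher with each shRNA in 5iLA H7 and 1 with uCCNE1 shRNA in t2iGo H1, where 3.2%, 2.77% and 1.21% of all genes were. After median-ratio scaling 1 gene was higher with each shRNA in 5iLA H7, where 2.93% and 2.03% of all genes were. With that scaling 1 was lower with uCCNE1 shRNA in primed H1 and 0 with pCCNE1 shRNA in t2iGo H1, where 2.29% and 2.18% of all genes were.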

Other observations

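Genes of the integrated stress response, which ATF4 and CHOP control, were set beside the p53 targets. Of 14 tested, 13 were below 0 with pCCNE1 and 14 with uCCNE1 shRNA against control, where 26.1% of all genes were above 0 with each. The medians were -0.63 and -0.64, against -0.15 and -0.14 over all genes, and limma called none of the 14 (0%). Under the 3 rescalings 12 of 14 were below 0 with pCCNE1 shRNA and 13 or 14 with uCCNE1 shRNA, with medians of -0.48 to -0.43 and -0.51 to -0.46. Within t2iGo H1, as deposited, 10 of the 14 were below 0 with each shRNA, where 36.4% and 50.1% of all genes were above 0. CHAC1, a glutathione-degrading enzyme, read 1.56 RPKM with pCCNE1 shRNA, 1.54 with uCCNE1 shRNA and 3.96 with control in 5iLA H7. In primed H1 CHAC1 read 16.6, 24.4 and 75.8 RPKM in that order. DDIT3, encoding CHOP, read 19.4, 10.1 and 32.4 RPKM in 5iLA H7 and 12.5, 7.13 and 20.5 RPKM in primed H1, but 8.34, 7.54 and 7.41 RPKM in t2iGo H1. The 2 shRNAs share their control libraries, so 1 control library per culture enters both sets of values.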
